A study of Mus musculus with 9 samples.

Results

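9 genes for transcription regulators of plasma cells were followed in RNA sequencing of mouse spleen: Prdm1, Irf4, Bhlha15, Pou2af1, Pou2f2, Ell2, Zbtb20, Ikzf1 and Ikzf3. They were taken by symbol from the deposited table of 46958 genes, and all 9 were found and passed the filter on low counts that left 14199 genes for testing. Every library came from the CD138-positive cells of 1 spleen of a 3-month-old mouse that had not been immunized, taken with magnetic beads at a stated purity above 80%, and all mice were of the mixed C57/BL6x129/SVxBALB/c background. The 3 genotypes, with 3 mice each, were WT (wild type), DH-LMP2A and kFRA, the last marked in the labels with LCDD, light chain deposition disease, a disorder in which a monoclonal immunoglobulin light chain accumulates in tissue. The labels say nothing more of the alleles, of whether kFRA and DH-LMP2A mice share one, or of the promoters that drive them. As background, LMP2A is a membrane protein of the Epstein-Barr virus that can stand in for survival signals of the B cell receptor. The title of the series names the toxicity of a free light chain to plasma cells as its subject.

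A B cell becomes a plasma cell when regulators that keep B cell identity are silenced and others turn on antibody secretion. Prdm1 encodes BLIMP-1, a repressor of the B cell programme that is also needed for the secretory one. Irf4 encodes a factor that, at a high dose, induces Prdm1 and keeps plasma cells alive. Bhlha15 encodes MIST1, a basic helix-loop-helix factor of secretory cells. Pou2f2 encodes OCT2, which binds the octamer element of immunoglobulin promoters, and Pou2af1 encodes OCA-B, the coactivator that docks on OCT2 and its relative OCT1. Ell2 encodes an elongation factor that favours the secreted form of heavy-chain mRNA. Zbtb20 encodes a zinc finger protein that supports lasting plasma cells, and Ikzf1 and Ikzf3 encode the zinc finger proteins Ikaros and Aiolos, both substrates of the ubiquitin ligase receptor cereblon when drugs used in myeloma are bound to it.

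Total counts were 15449026 to 21558128 per library. The regulators were well covered: the values behind this account ranged from 618 counts (Ikzf3 in kFRA replicate 3) to 22932 counts (Pou2af1 in DH-LMP2A replicate 1), and the Poisson 95% interval was between 1.3% and 7.97% of the value on either side, counting error only. Levels are given as CPM, the count relative to the library total after TMM scaling, which uses a trimmed mean of log ratios between libraries. 8 plasma cell markers summed to 18703.8 to 24006.3 CPM in WT, 33654.4 to 46509.5 in DH-LMP2A and 20228.3 to 32151.6 in kFRA. The B cell markers, also 8, summed to 676.4 to 954.7, 771.3 to 1221.8 and 544.1 to 695.1 CPM, the myeloid markers to 2328.1 to 3892.8, 604.3 to 1843.4 and 1124.0 to 1769.6 CPM, and the erythroid markers to 49.7 to 333.0, 2425.5 to 12851.6 and 1094.0 to 2583.9 CPM, in the same order. The 8 T cell markers summed to 45.5 to 126.1 CPM, and 1 of them, Cd8b1, differed in all 3 comparisons, with means of 38.8 CPM for DH-LMP2A, 13.3 for kFRA and 0.734 for WT (adjusted p = 5.17e-06, 1.68e-05 and 0.0054 by edgeR for DH-LMP2A against WT, kFRA against WT and kFRA against DH-LMP2A). No marker was at 0 in a whole genotype. In such a mixture, fewer cells of a type and less RNA per cell cannot be told apart. kFRA replicate 2 stood apart from the other kFRA libraries, with 619.3 CPM of 8 proliferation genes against 190.8 and 227.9. Its plasma cell markers summed to 20228.3 CPM against 30288.7 and 32151.6. Immunoglobulin genes held 29.21% of its counts, against 44.04% and 45.36%. That share was 43.57% to 55.4% in WT and 27.3% to 32.5% in DH-LMP2A. DH-LMP2A replicate 3 stood apart in erythroid markers, with 12851.6 CPM against 2425.5 and 2530.2. Xist, the transcript of the inactive X chromosome, split every genotype: it was at 733.6 CPM in kFRA replicate 2 against 1.3 and 3.14, at 4.48 in DH-LMP2A replicate 3 against 923.6 and 882.0, and at 0.459 in WT replicate 2 against 783.1 and 494.7. Counts and calls that changed without kFRA replicate 2 are given beside the results. Without it the kFRA libraries left are all low in Xist, while WT keeps libraries of both kinds. Without DH-LMP2A replicate 3 the DH-LMP2A libraries left are all high in Xist. In such fits genotype cannot be fully told apart from this split.

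Per kb of the length in the table, Pou2af1 had the highest mean level of the 9 genes in every genotype and Irf4 the second. In WT these were 265.7 ± 19.5 and 126.6 ± 47.0 CPM per kb (SD, n = 3), higher than 98.1% and 97.2% of the genes tested. Their libraries did not overlap in WT or in DH-LMP2A, but they did in kFRA. Ell2, Bhlha15 and Prdm1 followed in WT with 64.1 ± 8.37, 46.8 ± 17.7 and 33.6 ± 9.66 CPM per kb (SD, n = 3), then Ikzf1 with 31.6 ± 3.07, and each of these overlapped with its neighbour. Ikzf3 (16.0 ± 2.24) and Pou2f2 (15.3 ± 2.55 CPM per kb) lay below Ikzf1 without overlap with it and overlapped with each other. Zbtb20 was lowest in WT with 4.57 ± 1.38 CPM per kb (SD, n = 3), on a merged exon length of 30.73 kb that enters this figure. In DH-LMP2A, Ell2 and then Prdm1 (67.1 ± 2.55 CPM per kb) lay above Bhlha15 (44.9 ± 6.27), each without overlap with the next, whereas in kFRA the order was Bhlha15 (66.2 ± 13.6), Ell2 (58.3 ± 14.0) and Prdm1 (42.5 ± 5.94), with overlap between neighbours.

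Prdm1, the BLIMP-1 gene (chromosome 10, 44437177 to 44528501, GRCm38, minus strand), was highest in DH-LMP2A. Its level was 382.1, 370.0 and 354.2 CPM in DH-LMP2A replicates 1 to 3, with WT at 234.6, 128.9 and 189.9 CPM and kFRA at 235.5, 199.6 and 264.7 CPM. The 3 DH-LMP2A libraries were above all others and close together, while WT and kFRA overlapped. Prdm1 was higher in DH-LMP2A than in WT by a log2 fold change of 1.0 (standard error 0.215, adjusted p = 0.0159 by edgeR), and this call was lost without DH-LMP2A replicate 1 (log2 fold change 0.97, edgeR adjusted p = 0.0647). Against kFRA the DH-LMP2A libraries did not overlap either, but the difference did not pass (kFRA minus DH-LMP2A, log2 fold change −0.66, standard error 0.214, adjusted p = 0.12 by edgeR). Between kFRA and WT the log2 fold change was 0.34, with a 95% interval from −0.14 to 0.82. The call against WT was also lost with a covariate of B cell markers (log2 fold change 0.93, adjusted p = 0.0516 by edgeR), of erythroid markers (1.42, adjusted p = 0.155) or of plasma cell markers (1.07, adjusted p = 0.0931), the last 2 chosen after seeing the data.

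**Figure D1:**
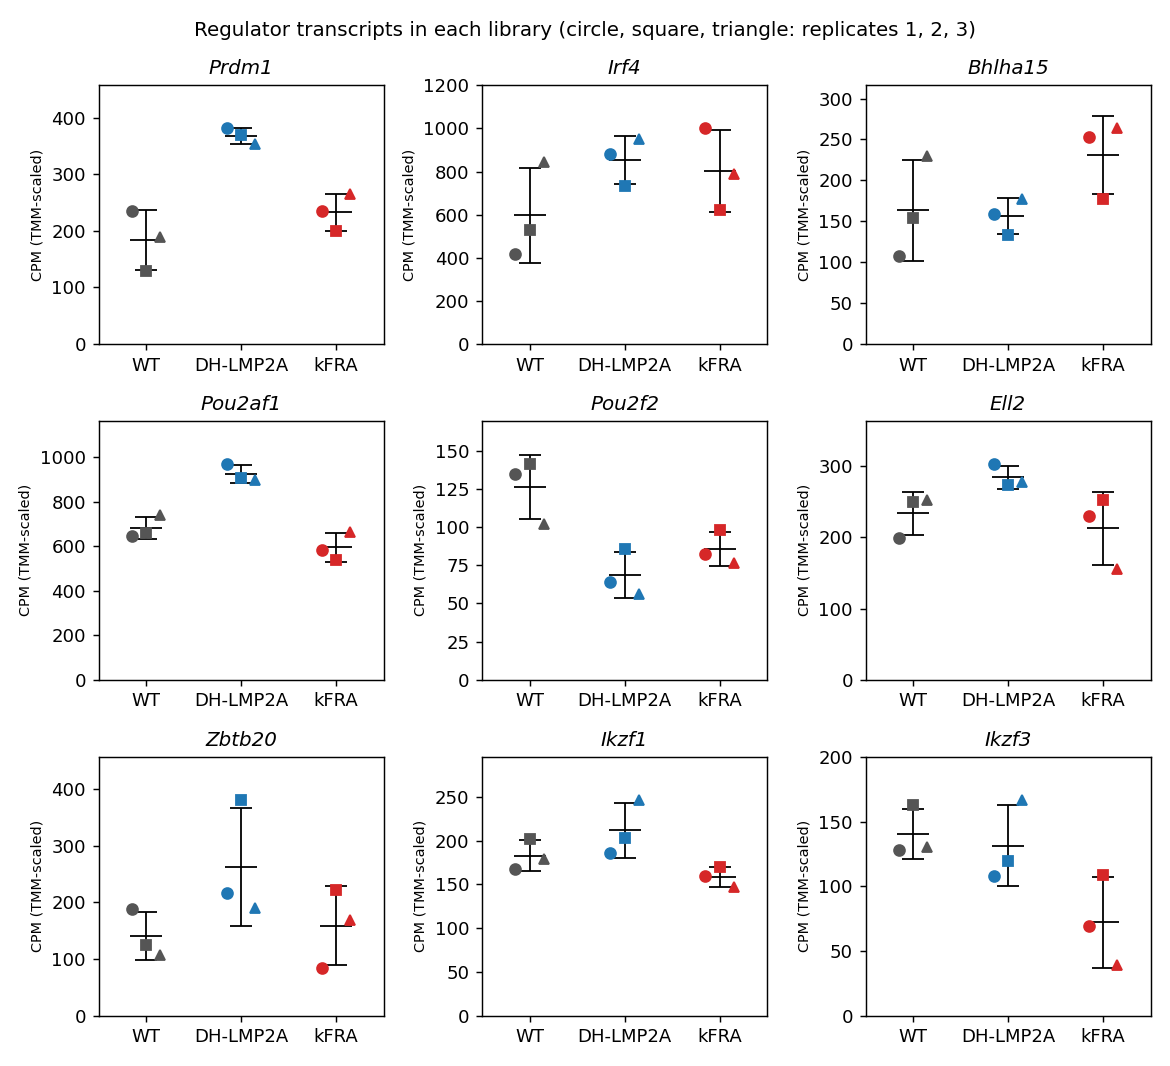
TMM-scaled CPM (linear axis from 0) of the 9 regulator genes in the 9 libraries, with 3 replicates per genotype as circle, square and triangle; the horizontal tick is the mean and the bar the SD. Prdm1, Pou2af1 and Ell2 have all 3 DH-LMP2A libraries above the other 6, and Ikzf3 and Zbtb20 spread widely within kFRA.

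Pou2af1, the OCA-B gene (chromosome 9, 51213690 to 51240079, plus strand), was the only regulator past the threshold between kFRA and DH-LMP2A. Prdm1 (−0.66), Zbtb20 (−0.73) and Ikzf3 (−0.86) had larger log2 fold changes there that did not pass. Pou2af1 was at 970.3, 906.5 and 898.4 CPM in DH-LMP2A replicates 1 to 3, at 582.7, 538.6 and 663.8 CPM in kFRA and at 647.1, 658.9 and 739.2 CPM in WT. DH-LMP2A lay above both other genotypes in every library, and kFRA and WT overlapped. Pou2af1 was lower in kFRA than in DH-LMP2A by a log2 fold change of −0.64 (standard error 0.152, adjusted p = 0.0461 by edgeR). It passed in 0 of 6 fits with a replicate omitted (edgeR adjusted p from 0.0634 to 0.238), although its log2 fold change stayed between −0.72 and −0.51. DH-LMP2A minus WT gave 0.44 (standard error 0.152, adjusted p = 0.0957 by edgeR), and kFRA minus WT gave −0.2 with a 95% interval from −0.54 to 0.15. With library size alone DH-LMP2A minus WT gave 0.79 (adjusted p = 0.00692 by edgeR).

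Pou2f2, which encodes the DNA-binding partner OCT2 (chromosome 7, 25087344 to 25159922, minus strand), ran the other way. It was at 135.0, 141.4 and 102.2 CPM in WT replicates 1 to 3, at 64.1, 85.5 and 56.4 CPM in DH-LMP2A and at 82.4, 98.4 and 76.3 CPM in kFRA. Every WT library lay above every library of the other genotypes, which overlapped with each other. Pou2f2 was lower in DH-LMP2A than in WT by a log2 fold change of −0.88 (standard error 0.194, adjusted p = 0.0179 by edgeR). The call was lost without DH-LMP2A replicate 1, WT replicate 1 or WT replicate 2 (edgeR adjusted p = 0.067, 0.0559 and 0.0702), and with scaling by library size alone (log2 fold change −0.54, edgeR adjusted p = 0.203). It was also lost with a covariate of B cell markers (−0.91, adjusted p = 0.0588 by edgeR), of erythroid markers (−0.5, adjusted p = 0.721) or of plasma cell markers (−0.44, adjusted p = 0.234). Scaling by library size alone moved the median log2 fold change of all genes by 0.342 in this comparison, by 0.212 in kFRA against WT and by −0.131 in kFRA against DH-LMP2A. In kFRA against WT, Pou2f2 had a log2 fold change of −0.56 (standard error 0.193, adjusted p = 0.0741 by edgeR), and it passed without kFRA replicate 2 (−0.6, edgeR adjusted p = 0.0446). Pou2f2 shares exonic bases with Mir6537 on the same strand, so its values are uncertain.

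Ell2 (chromosome 13, 75707484 to 75772356, plus strand), the elongation factor gene, was at 303.3, 273.4 and 277.5 CPM in DH-LMP2A replicates 1 to 3. WT had 198.7, 249.8 and 253.2 CPM, and kFRA 230.4, 252.6 and 155.1 CPM, in the same order. As for Prdm1 and Pou2af1, the 3 DH-LMP2A libraries were above the other 6. This held for 797 of the 14199 genes tested, 5.61%, and for 3 of the 9 regulators. No difference of Ell2 passed: the log2 fold changes were −0.42 for kFRA minus DH-LMP2A (95% interval −0.86 to 0.02), 0.28 for DH-LMP2A minus WT (−0.15 to 0.72) and −0.14 for kFRA minus WT (−0.57 to 0.3).

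The bases before a start site of Prdm1, Pou2af1 and Ell2 are shown because the DH-LMP2A libraries were highest for each, and because OCT2 and OCA-B act on octamer elements. Each is the 250 bases upstream of the start in RefSeq (GRCm38.p6), written 5′ to 3′ on the gene's strand, at chr10:44458749-44458998 (minus) for Prdm1, chr9:51213440-51213689 (plus) for Pou2af1 and chr13:75707234-75707483 (plus) for Ell2. Capitals mark TGCAAAT, 7 of the 8 letters of the octamer, and TGACGT, part of the element bound by ATF and CREB factors, both searched on either strand and chosen after the sequences had been seen. Matches of TGACGT may overlap each other. The start used for Prdm1 lies inside the span of the gene in the table, so it is not its outermost start.
Prdm1: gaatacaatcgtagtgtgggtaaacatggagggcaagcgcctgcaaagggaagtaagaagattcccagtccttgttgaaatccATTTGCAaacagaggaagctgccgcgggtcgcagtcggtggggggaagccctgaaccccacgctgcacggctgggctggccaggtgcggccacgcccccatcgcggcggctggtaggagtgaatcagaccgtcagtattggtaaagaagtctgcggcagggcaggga
Pou2af1: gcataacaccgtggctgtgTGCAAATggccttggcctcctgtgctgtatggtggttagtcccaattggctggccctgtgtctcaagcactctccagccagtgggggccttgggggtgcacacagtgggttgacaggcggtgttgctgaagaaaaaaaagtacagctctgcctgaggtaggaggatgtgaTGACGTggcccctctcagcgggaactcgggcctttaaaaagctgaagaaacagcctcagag
Ell2: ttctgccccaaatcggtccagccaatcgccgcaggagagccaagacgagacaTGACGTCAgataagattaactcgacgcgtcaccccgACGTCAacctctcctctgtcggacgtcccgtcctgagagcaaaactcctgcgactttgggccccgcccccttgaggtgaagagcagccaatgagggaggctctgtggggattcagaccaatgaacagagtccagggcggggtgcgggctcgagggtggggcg

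Prdm1 held 1 match of the octamer letters, starting 167 bases before its start site, and Pou2af1 held 1, at 231 bases. These letters occur in 3.56% of the 32851 windows of this length in the table, and in 2 of the 9 entries found for 8 of the regulators. The full octamer ATGCAAAT was in none of the 9 entries and in 1.6% of all windows. TGACGT was in Pou2af1 (61 bases before the start) and 3 times in Ell2 (198, 196 and 162 bases), and in 6.47% of all windows. The spaced IRF element (a pair of GAAA separated by NN) and the BLIMP-1 core AGNGAAAG were in none of the 9 entries, and in 2.98% and 7.3% of all windows. Also searched were the Ikaros core TGGGAA and the E-box CANNTG. The first was in 2 of the 9 entries (Prdm1 and Zbtb20) and in 21.6% of all windows. The E-box was in 5 of the 9 and in 66.2% of all windows. A match is only a run of letters, and binding was not measured here.

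Irf4 and Bhlha15 passed the test in no comparison. Irf4 (chromosome 13, 30749226 to 30766927, plus strand) was at 418.6, 526.6 and 844.9 CPM in WT, 882.8, 730.6 and 949.3 CPM in DH-LMP2A and 1001.3, 621.7 and 790.4 CPM in kFRA. WT replicate 3 lay within the range of the other genotypes and WT replicates 1 and 2 lay below it. The log2 fold change was 0.52 for DH-LMP2A minus WT (standard error 0.281, adjusted p = 0.286 by edgeR), 0.43 for kFRA minus WT (standard error 0.281, adjusted p = 0.296 by edgeR) and −0.09 for kFRA minus DH-LMP2A (95% interval −0.72 to 0.54). Bhlha15, the MIST1 gene (chromosome 5, 144190286 to 144194441, plus strand), was at 253.6, 176.8 and 263.9 CPM in kFRA, 159.3, 133.7 and 177.3 CPM in DH-LMP2A, beside 107.2, 154.0 and 229.7 CPM in WT. Replicate 2 was the lowest kFRA library for both genes, and for Bhlha15 it alone fell within the DH-LMP2A range. The log2 fold change of Bhlha15 was 0.56 for kFRA minus DH-LMP2A (standard error 0.272, adjusted p = 0.256 by edgeR), and in WT the gene varied 2.14-fold between mice. Without kFRA replicate 2 that value was 0.79 (adjusted p = 0.0831 by edgeR), and with the plasma cell marker covariate it passed (0.82, adjusted p = 0.0153). With library size alone, Irf4 passed in DH-LMP2A against WT (0.89, adjusted p = 0.0217 by edgeR) and Bhlha15 in kFRA against WT (0.71, adjusted p = 0.0324 by edgeR).

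Ikzf3, the Aiolos gene (chromosome 11, 98464902 to 98546031, minus strand), had the widest spread within a genotype. It was at 69.4, 108.7 and 38.8 CPM in kFRA replicates 1 to 3, a 2.8-fold range, at 107.6, 119.9 and 166.9 CPM in DH-LMP2A and at 127.9, 163.1 and 130.5 CPM in WT. All kFRA libraries lay below WT, and only replicate 2 overlapped with DH-LMP2A. With all replicates the log2 fold change was −0.96 for kFRA minus WT (standard error 0.329, adjusted p = 0.0729 by edgeR) and −0.86 for kFRA minus DH-LMP2A (standard error 0.329, adjusted p = 0.17 by edgeR). Without kFRA replicate 2, which leaves only the kFRA libraries low in Xist (1.3 and 3.14 CPM), both passed. The values were −1.31 (edgeR adjusted p = 0.00914) and −1.22 (edgeR adjusted p = 0.0184), and the part of the Xist split in them was not tested. Without kFRA replicate 2, 5 of the 8 proliferation markers were lower in kFRA than in WT and 6 lower than in DH-LMP2A, where 20% and 11% of the genes tested were. With all libraries and a covariate of proliferation markers, Ikzf3 had −0.88 (adjusted p = 0.154 by edgeR) and −0.69 (adjusted p = 0.634). With the B cell marker covariate it had −0.41 and −0.48 (adjusted p = 0.796 and 0.769 by edgeR).

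Ikzf1, which encodes Ikaros (chromosome 11, 11685003 to 11772926, plus strand), was steadier, at 166.9 to 201.8 CPM in WT, 185.5 to 246.5 CPM in DH-LMP2A and 146.5 to 169.9 CPM in kFRA. The kFRA libraries lay below those of DH-LMP2A without overlap, but the log2 fold change of −0.42 did not pass (standard error 0.149, adjusted p = 0.149 by edgeR). Zbtb20 (chromosome 16, 42875881 to 43642602, plus strand) was at 188.3, 125.2 and 107.8 CPM in WT, 215.9, 381.3 and 190.3 CPM in DH-LMP2A and 84.1, 222.3 and 169.1 CPM in kFRA. Its DH-LMP2A libraries lay above WT by a narrow margin, and the log2 fold change of 0.9 did not pass (standard error 0.387, adjusted p = 0.172 by edgeR). With the plasma cell marker covariate it was 1.98 and passed (adjusted p = 0.0049 by edgeR), as did kFRA minus DH-LMP2A (−1.12, adjusted p = 0.0138). An exon of Gm9968 overlaps Zbtb20 on the opposite strand, and Mir568 overlaps it on the same strand. The strand setting of the counting is not given in the sources used here, so the values of Zbtb20 are uncertain.

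**Figure D2:**
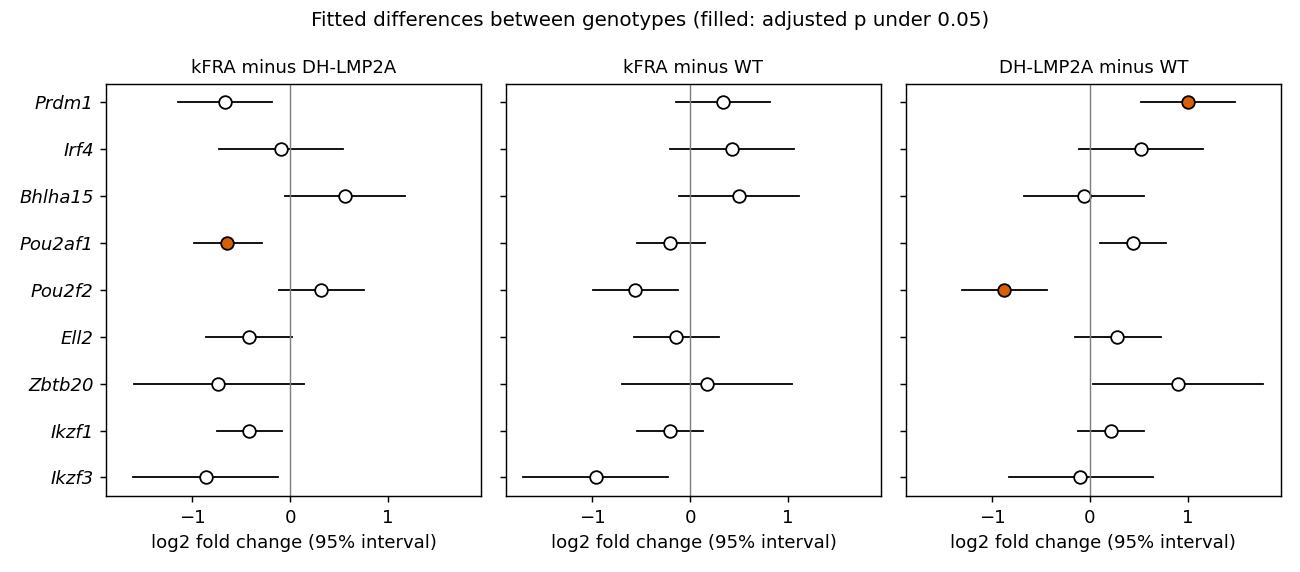
Log2 fold change of the 9 regulators in the 3 comparisons, with the 95% interval from the edgeR fit as a line; filled points passed an adjusted p of 0.05. Only Prdm1 and Pou2f2 in DH-LMP2A minus WT, and Pou2af1 in kFRA minus DH-LMP2A, are filled, and most intervals in the middle panel include 0.

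In kFRA against DH-LMP2A, 1 of the 9 regulators passed, lower in kFRA, where 5.02% of all genes tested passed in either direction, 1.73% higher and 3.3% lower. The libraries of 4 regulators did not overlap (Prdm1, Pou2af1, Ell2 and Ikzf1, all lower in kFRA), against 25.6% of all genes. The median log2 fold change of the 9 was −0.42, with 7 of 9 below 0, beside a median of 0 over all genes tested. Between kFRA and WT none passed by edgeR, where 17.8% of all genes did. At an unadjusted edgeR p under 0.05 there were 2 regulators, Pou2f2 and Ikzf3, where 35.0% of all genes were. The same 2 had libraries that did not overlap (34.3% of all genes). The DESeq2 Wald test called 1, Ikzf3, where it called 3536 genes in all. Without kFRA replicate 2 those 2 passed by edgeR, where 38.8% of the 14518 genes tested did. Between DH-LMP2A and WT, 2 of 9 passed, 1 in each direction, where 12.4% of all genes did. 5 regulators did not overlap there (Prdm1, Pou2af1, Pou2f2, Ell2 and Zbtb20), against 36.6% of all genes. With 9 genes, these counts differ from the shares of all genes by a few genes at most and show nothing particular to the regulators. The comparisons share libraries, so they are not independent of each other.

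Ratios of 2 regulators within a library do not depend on how libraries are scaled. The pairs below were chosen after their values had been seen. The level per kb of Pou2af1 was 48.6, 34.0 and 51.1 times that of Pou2f2 in DH-LMP2A replicates 1 to 3, 15.4, 14.9 and 23.2 times in WT and 22.7, 17.6 and 27.9 times in kFRA. The coactivator was most in excess of its partner in DH-LMP2A, by 2.51-fold over WT and 1.97-fold over kFRA on the geometric mean, with no overlap (exact permutation test, 2-sided, p = 0.1 each, adjusted over 9 tests 0.18). WT and kFRA overlapped (exact permutation test, p = 0.3). The ratio of Ikzf3 to Ikzf1 was 0.506, 0.533 and 0.481 in WT, 0.383, 0.391 and 0.447 in DH-LMP2A and 0.288, 0.422 and 0.175 in kFRA. WT lay above both other genotypes in every library (exact permutation test, p = 0.1 each, adjusted 0.18). The ratio of Prdm1 to Irf4 did not overlap between DH-LMP2A (0.372, 0.435 and 0.32) and kFRA (0.202, 0.276 and 0.288), with exact permutation p = 0.1, but WT spanned both (0.481, 0.21 and 0.193). With 3 libraries against 3, 0.1 is the smallest p-value these tests can give.

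**Figure D3:**
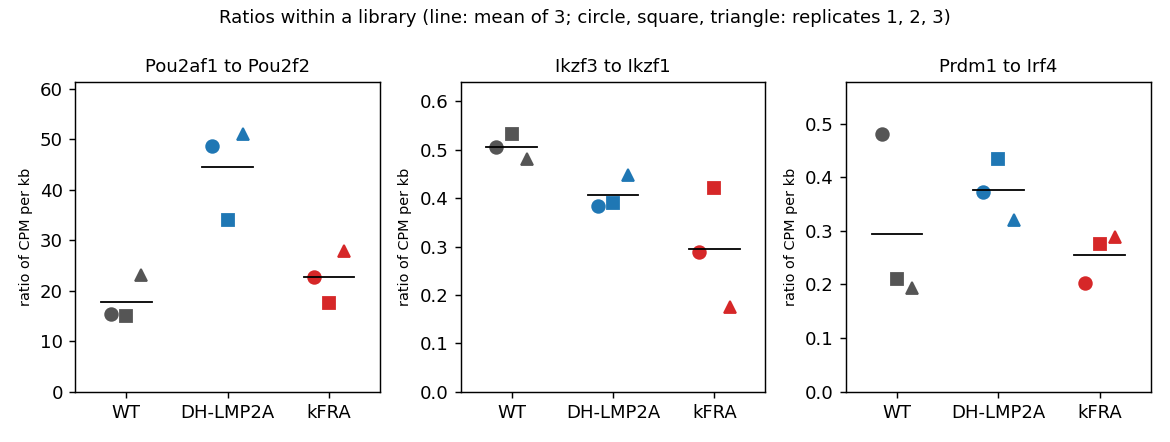
Ratio of CPM per kb of 2 regulators within each library (linear axis from 0), by genotype, with the mean of 3 libraries as a line. The Pou2af1 to Pou2f2 ratio is 34.0 to 51.1 in DH-LMP2A and at most 27.9 elsewhere, and the Ikzf3 to Ikzf1 ratio is highest in WT.

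The genes whose profile over the 9 libraries was nearest to that of each regulator were found by the root mean square difference of gene-centred log2 CPM, among 9625 other genes. Nearest to Irf4 were Sdc1, which encodes CD138, the surface protein used to isolate the cells, at 0.12, then Rpn1 at 0.13 and Tmem258 at 0.14, where the median gene lay at 0.46. Nearest to Prdm1 were Ivns1abp (0.19), H2-Q4 (0.19) and Hipk1 (0.2), with a median of 0.55. Nearest to Pou2af1 were Reep5 (0.094), Spata2l (0.11) and H2-M3 (0.12), and nearest to Pou2f2 were Rgs3 (0.11), Sec14l1 (0.11) and Apex1 (0.12), with medians of 0.39 and 0.5. H2-Q4 and H2-M3 belong to a gene family with similar copies, so their values are uncertain. Among the regulators themselves, the nearest pair was Ell2 and Ikzf1, at 0.19, and Pou2f2 stood farthest from its nearest, Ikzf1, at 0.52.

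Genes that BLIMP-1 is known to repress were lower in kFRA than in WT almost throughout, although Prdm1 itself did not pass in that comparison. Of 12 such genes, 11 passed and were lower in kFRA, where 11.1% of all genes passed in that direction, and the list's median log2 fold change was −2.55 beside −0.04 for all genes. Cd22, an inhibitory receptor of B cells, was at 7.8 ± 1.63 CPM in kFRA beside 94.6 ± 33.3 CPM in WT (SD over 3 libraries; log2 fold change −3.6, standard error 0.606, adjusted p = 0.00434 by edgeR). Bcl6, the master regulator of germinal centre B cells, was at 3.72 ± 1.24 against 15.6 ± 5.8 CPM (log2 fold change −2.06, edgeR adjusted p = 0.00476), and Pax5, the factor that maintains B cell identity, at 7.11 ± 3.66 against 57.9 ± 24.8 CPM (−3.01, edgeR adjusted p = 0.0104; SD, n = 3 each). In DH-LMP2A against WT, where Prdm1 was higher, 4 of the 12 passed and were lower (Cd22, Bcl6, Id3 and Ciita), where 7.3% of all genes did, with a median of −1.46. In kFRA against DH-LMP2A 1 passed, S1pr1, a receptor for leaving lymphoid tissue, lower in kFRA by a log2 fold change of −1.79 (standard error 0.298, adjusted p = 0.00831 by edgeR), where 3.3% of all genes passed in that direction. Without kFRA replicate 2 the count against WT was 11 again, where 20% of the genes tested passed in that direction. Without both it and DH-LMP2A replicate 3 the count in DH-LMP2A against WT was 9. No share of all genes is given for that last fit, so the rise to 9 cannot be read as particular to this list.

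B cell markers moved with this list in kFRA against WT. 3 of the 12 genes, Pax5, Cd22 and Fcer2a, are also among the 8 B cell markers. Of these markers 4 passed and were lower in kFRA than in WT (median log2 fold change −0.95), where 11.1% of all genes were. In DH-LMP2A against WT 2 were higher and 1 lower (median 0.34), where 5.07% of all genes were higher and 7.3% lower. With the mean of the B cell markers as a covariate none of the 12 passed in kFRA against WT, where 380 of the 14199 genes still did. In DH-LMP2A against WT 4 were lower and 1 higher. For this covariate in DH-LMP2A against WT no share of all genes is given, here or below, so such counts have none to be set beside. The covariate holds Pax5, Cd22 and Fcer2a themselves, and 4 of its 8 genes were lower in kFRA, so this fit cannot tell B cell content from genotype. In kFRA against WT it raised the standard error of Prdm1 from 0.213 to 0.395. Myeloid markers were lower in kFRA than in WT for 4 of 8 (median log2 fold change −1.76), where 11.1% of all genes were. In DH-LMP2A against WT 1 of them was lower, Lyz2 (−2.42, adjusted p = 0.0159 by edgeR), where 7.3% of all genes were. The median there was −1.43, and 7 of the 8 had an unadjusted edgeR p under 0.05, where 26.6% of all genes did. The erythroid markers were higher than in WT for 4 of 8 in both other genotypes, where 6.68% (kFRA) and 5.07% (DH-LMP2A) of all genes were. The part of the myeloid markers in the result was not tested. Scaled by library size alone, 9 of the 12 were lower in kFRA than in WT and 2 in DH-LMP2A than in WT, where 917 and 518 of the 14199 genes were. Pax5, Ciita, Bcl6, Cd22 and Cxcr5 share exonic bases with a gene on the other strand, so their values are uncertain.

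**Figure D4:**
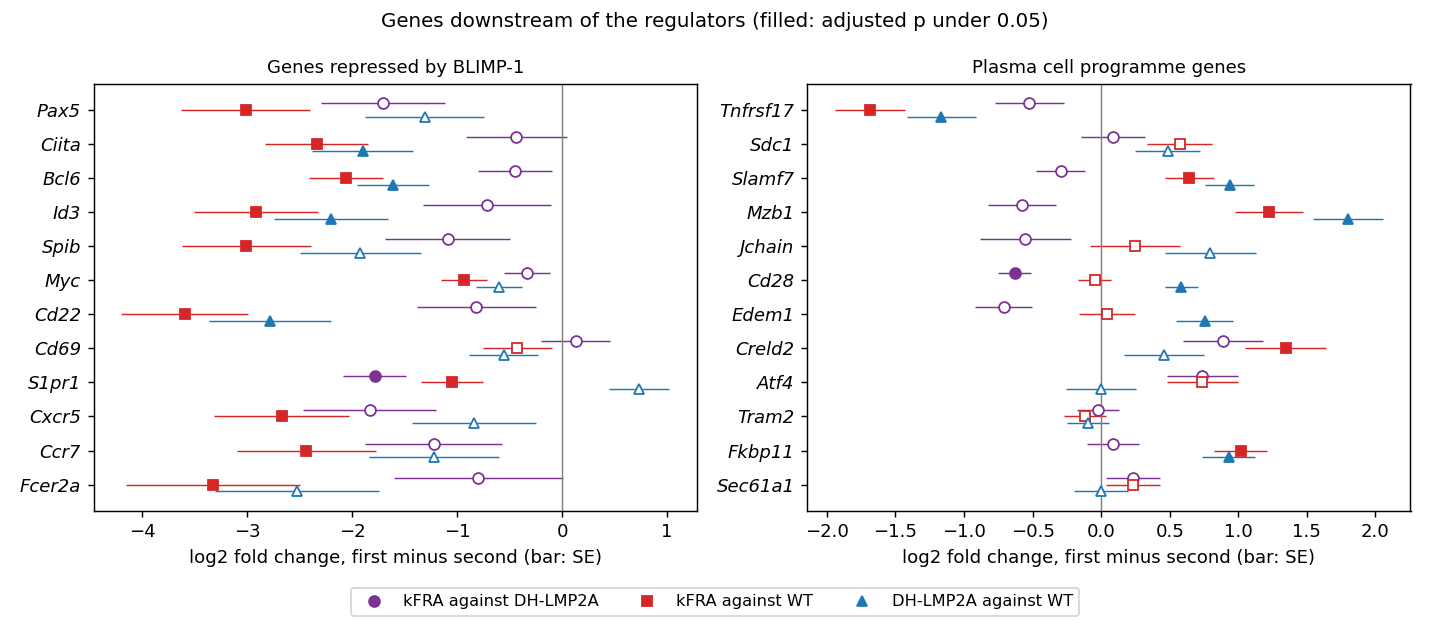
Log2 fold change with its SE for 12 genes repressed by BLIMP-1 (left) and 12 genes of the plasma cell programme (right) in the 3 comparisons; filled symbols passed an adjusted p of 0.05. On the left the squares for kFRA minus WT lie below 0 for every gene and are filled for 11; on the right Tnfrsf17 lies below 0 and Mzb1, Creld2, Fkbp11 and Slamf7 above 0 in the same comparison.

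The wider set of B cell regulators, which shares 6 of its 16 genes with that list, gave 10 lower and none higher in kFRA against WT, 6 lower and none higher in DH-LMP2A against WT and 1 lower in kFRA against DH-LMP2A, where 11.1%, 7.3% and 3.3% of all genes were lower. When kFRA replicate 2 was left out, 11 were lower in kFRA than in WT and 2 lower than in DH-LMP2A, where 20% and 11% of the genes tested were. Spi1, which encodes PU.1, an ETS factor of B and myeloid cells, was at 75.7 ± 13.0 CPM in WT, 39.2 ± 1.77 CPM in kFRA, beside 38.7 ± 5.47 CPM in DH-LMP2A (SD, n = 3 each; edgeR adjusted p = 0.00422 and 0.0044 against WT). Irf8, the relative of Irf4 that acts in B and myeloid cells, was lower than WT by log2 fold changes of −1.07 in kFRA and −1.3 in DH-LMP2A (edgeR adjusted p = 0.00694 and 0.00322). Both genes passed in all 6 fits that left out a replicate, in either comparison. The 8 myeloid markers had median log2 fold changes of −1.76 and −1.43 in these comparisons, and their part in Spi1 and Irf8 was not tested. Mef2c was the gene that passed between kFRA and DH-LMP2A (log2 fold change −0.89, standard error 0.198, adjusted p = 0.0352 by edgeR), a call that held in 2 of 6 such fits. With the B cell marker covariate, which holds Pax5 itself, none passed in kFRA against WT and 4 did in DH-LMP2A against WT. Scaled by library size alone, 6 were lower in kFRA than in WT, and in DH-LMP2A against WT 1 was lower and 1 higher. With that scaling 917 of the 14199 genes were lower in kFRA than in WT. Against WT, 518 were lower and 2053 higher in DH-LMP2A. Bcl6, Pax5, Ciita, Bach2, Foxo1 and Bcl11a share exonic bases with a gene on the other strand, so their values are uncertain.

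Genes of the plasma cell programme, which act downstream of BLIMP-1, IRF4 and XBP1, included some that were higher than in WT in both other genotypes, with medians of 0.54 in DH-LMP2A and 0.41 in kFRA on the log2 scale. In DH-LMP2A against WT 5 of 12 were higher, where 5.07% of all genes were, and 1 was lower. Mzb1, a chaperone of immunoglobulin assembly, was at 3693.8 ± 397.2 CPM in DH-LMP2A, 2472.7 ± 405.4 CPM in kFRA, beside 1059.3 ± 294.3 CPM in WT (SD, n = 3 each; edgeR adjusted p = 0.0021 and 0.0107 against WT). In kFRA against WT 4 were higher (Mzb1, Creld2, Fkbp11 and Slamf7), where 6.68% of all genes were, and 1 lower. The lower gene was the same in both, Tnfrsf17, the survival receptor BCMA, with log2 fold changes of −1.69 in kFRA and −1.16 in DH-LMP2A (edgeR adjusted p = 0.00253 and 0.0159). Between kFRA and DH-LMP2A only Cd28, a costimulatory receptor of long-lived plasma cells, passed, lower in kFRA by a log2 fold change of −0.63 (standard error 0.12, adjusted p = 0.0174 by edgeR) and called in 1 of 6 fits that left out a replicate. Without kFRA replicate 2, 2 were higher and 1 lower there, and 6 higher and 1 lower in kFRA against WT. In these fits 22.7% and 38.8% of the genes tested passed in either direction. With the B cell marker covariate none of the 12 passed in kFRA against WT or against DH-LMP2A, and 4 were higher and 1 lower in DH-LMP2A against WT. With library size alone 8 were higher in DH-LMP2A than in WT, where 2053 of the 14199 genes tested were. The plasma cell markers summed higher in DH-LMP2A than in WT without overlap, and overlapped between kFRA and WT (the sums above). Sdc1, Jchain, Mzb1, Slamf7 and Tnfrsf17 are in both lists, so the lists are not separate evidence. Mzb1 and Slamf7 share exonic bases with other genes and are uncertain.

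Among 16 other regulators of plasma cells none passed in kFRA against DH-LMP2A, Xbp1 included (log2 fold change −0.118, standard error 0.248, adjusted p = 0.814 by edgeR), and 0 did by the DESeq2 Wald test. An unadjusted edgeR p under 0.05 was found for 3, where 22.4% of all genes had one. Lower in kFRA than in WT were 5 (Myb, Runx1, Hhex, Zbtb38 and Zbtb32), and none was higher, where 11.1% of all genes were lower and 6.68% higher. When kFRA replicate 2 was left out, 4 were lower than in WT and 1 lower than in DH-LMP2A, where 20% and 11% of the genes tested were. Myb, which encodes a factor needed for plasma cell migration, was at 2.06 ± 1.45 CPM in kFRA beside 9.75 ± 1.51 CPM in WT (SD over 3 libraries; log2 fold change −2.21, standard error 0.47, adjusted p = 0.0126 by edgeR), and passed in 6 of 6 fits that left out a replicate, beside 2 for Runx1 and Hhex and 1 for Zbtb38 and Zbtb32. Between DH-LMP2A and WT 3 were lower (Stat3, Nfil3 and Myb) and 1 higher, Ern1, which encodes the stress sensor IRE1 that splices Xbp1 mRNA (log2 fold change 0.79, standard error 0.201, adjusted p = 0.0327 by edgeR), where 7.3% of all genes were lower and 5.07% higher. Stat3 passed in 4 of 6 fits with a replicate omitted, Nfil3 in 2, and Myb and Ern1 in 1. With the B cell marker covariate none passed in kFRA against WT and 1 was lower in DH-LMP2A against WT. Scaled by library size alone, 3 were lower in kFRA than in WT, and 4 higher and 1 lower in DH-LMP2A than in WT. With that scaling 917 of the 14199 genes were lower in kFRA than in WT. Against WT, 2053 were higher and 518 lower in DH-LMP2A. Myb, Stat3 and Runx1 share exonic bases with a gene on the other strand, so their values are uncertain.

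Of 20 relatives and partners of the regulators, 18 were tested. Crbn, which encodes cereblon, was at 22.0 ± 1.5 CPM in kFRA, 41.0 ± 1.17 CPM in DH-LMP2A, with WT at 29.2 ± 4.8 CPM (SD, n = 3 each). It was lower in kFRA than in DH-LMP2A by a log2 fold change of −0.9 (standard error 0.138, adjusted p = 0.00518 by edgeR), a call that held in 6 of 6 fits that left out a replicate, and higher in DH-LMP2A than in WT (0.49, standard error 0.137, adjusted p = 0.0472 by edgeR), which held in 1 of 6. Crbn overlaps an exon of Trnt1 on the opposite strand, so its values are uncertain. Prdm2, a relative of Prdm1, and Mllt3, a partner of elongation complexes, were also lower in kFRA than in DH-LMP2A, by −0.63 and −0.6 (edgeR adjusted p = 0.0294 and 0.0331), in 2 and 1 of 6 such fits. Prdm2 was also higher in DH-LMP2A than in WT (0.62, adjusted p = 0.0175 by edgeR), in 2 of 6. Eaf2, which encodes a cofactor that binds ELL proteins, was higher than in WT in both other genotypes, at 267.0 ± 129.9 CPM in kFRA and 269.3 ± 66.6 CPM in DH-LMP2A against 110.7 ± 26.2 CPM (SD, n = 3 each; edgeR adjusted p = 0.033 and 0.0395), in 2 and 1 of 6 such fits. In all, 3 of the 18 were lower in kFRA than in DH-LMP2A (3.3% of all genes), 1 was higher in kFRA than in WT (6.68%) and 3 were higher in DH-LMP2A than in WT (5.07%). With the B cell marker covariate none of the 18 passed in any of the 3 comparisons. Leaving out kFRA replicate 2, 7 of the 18 were lower and 2 higher in kFRA than in DH-LMP2A, and 4 lower and 2 higher than in WT, where 22.7% and 38.8% of the genes tested passed in either direction. Of 8 genes listed as targets of MIST1, 6 were tested. None passed between kFRA and DH-LMP2A (0 by the DESeq2 Wald test), where 5.02% of all genes did by edgeR. At an unadjusted edgeR p under 0.05 there were 2, where 22.4% of all genes were. Without kFRA replicate 2, 2 were higher in kFRA, where 22.7% of the genes tested passed in either direction. Against WT, kFRA had Ccpg1 higher (log2 fold change 1.09, adjusted p = 0.0441 by edgeR) and Cplx2, a complexin of regulated secretion, lower (−1.06, adjusted p = 0.0414), in 1 and 2 of 6 fits with a replicate omitted. Leaving out kFRA replicate 2, 2 of the 6 were higher and 1 lower than in WT, where 38.8% of the genes tested passed in either direction. DH-LMP2A had Cplx2 and Rab26 lower than WT (−1.51 and −0.85, adjusted p = 0.0125 and 0.0449 by edgeR), in 5 and 0 of 6 fits with a replicate omitted. With all libraries, 6.68% of all genes were higher and 11.1% lower in kFRA than in WT, and 7.3% lower in DH-LMP2A than in WT. Ccpg1 and Rab26 share exonic bases with other genes and are uncertain.

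**Figure D5:**
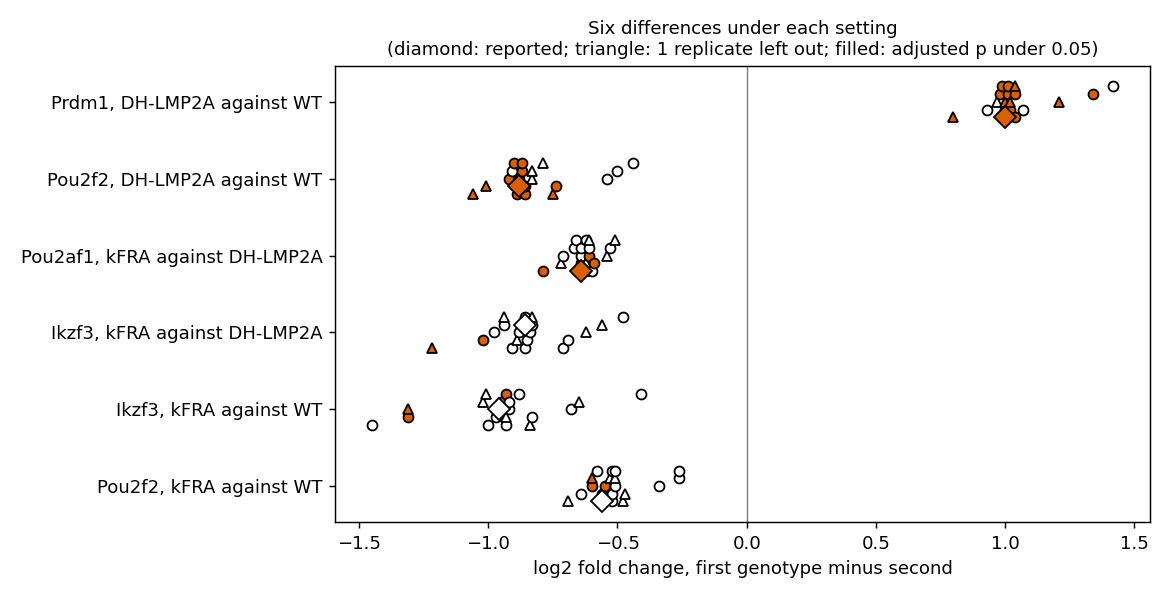
Log2 fold change of 6 differences between genotypes under each setting; the diamond is the reported value, triangles leave out 1 replicate and circles are the other settings, filled where the adjusted p was under 0.05. The sign of the 6 differences was the same in every setting shown, but Pou2af1 was filled in 4 of 19 other settings and Prdm1 in 15 of 19.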

How the data were processed

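Members and gene lists were chosen with earlier results of these data known. The authors deposited a table of raw counts per gene for 9 libraries, 1 column each and all used. STAR 2.4.0a, featureCounts, Subread 1.5.0-p3, DESeq2 and the builds mm10 and GRCm38 are named in the submitters' processing notes, without roles; strand and multimapping settings are not given in the sources used here. Libraries were stranded, from polyadenylated RNA, and paired-end, per the labels' protocols. Of 44104 symbols found once in GENCODE M21, 99.85% overlapped that gene's GRCm38 span. The deposited gene length, in bases and of another unit than the counts, gave CPM per kb.

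Genes were kept by filterByExpr (14199, 258 of them immunoglobulin), scaled by TMM and fitted with edgeR 4.0.16 (R 4.3.3) by quasi-likelihood on all 9 libraries, 1 coefficient per genotype; p-values were adjusted over all genes by Benjamini-Hochberg, threshold 0.05. The SE is the log2 fold change over the square root of F. The 9 members are named whatever their values; of each list, at most the 4 genes with the smallest p-value per comparison are described with values. Xbp1, Zbtb32, Slamf7 in kFRA against WT and Tnfrsf17 in DH-LMP2A against WT fall outside this and were named after their values were seen. In simulated data for kFRA against WT over 14199 genes, 55.2% of genes changed 2-fold and 99% of those changed 4-fold were recovered. The simulation gave every gene a dispersion of 0.05, below the common dispersion of 0.0655 in the data, and had no outlying library. The shares recovered may therefore be too high for the data. Each library is a different mouse; no 2 replicates agreed within sampling noise (chi-square per degree of freedom 17.3 to 163.9). Alternatives included DESeq2 1.42.0, other scalings and filters, covariates, a replicate block and left-out libraries. Likeness used genes with a mean of at least 5 CPM other than immunoglobulin genes, with a prior count of 2.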

Additional observations from a re-analysis of the deposited data

How the results depend on the processing

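The covariates of erythroid and plasma cell markers were chosen after seeing the data. The cause of these changes was not tested. Marker levels differed between genotypes, so fits with B cell, erythroid or plasma cell covariates cannot tell cell content from genotype. The regulators past the threshold numbered 1 (kFRA against DH-LMP2A), 0 (kFRA against WT) and 2 (DH-LMP2A against WT). In kFRA against DH-LMP2A the number was 0 with DESeq2 size factors, no filter on low counts, no immunoglobulin genes, only the 6 libraries compared, or B cell, proliferation or erythroid covariates, and 3 with the plasma cell covariate (Pou2af1, Bhlha15 and Zbtb20); leaving out each replicate gave 0 to 1, the 1 being Ikzf3. In kFRA against WT it was 1 with library size alone, no filter or the DESeq2 Wald test, 0 to 2 when each replicate was left out, and 2 without both kFRA replicate 2 and DH-LMP2A replicate 3. In DH-LMP2A against WT it was 0 with the B cell or erythroid covariate, 1 with the plasma cell covariate (Zbtb20, with Prdm1 and Pou2f2 lost), 3 with library size alone (all higher, Pou2f2 lost) or the DESeq2 Wald test (Pou2af1 gained), and 0 to 2 when each replicate was left out. With the replicate block it was 0 in kFRA against DH-LMP2A (Pou2af1 adjusted p = 0.062 by edgeR) and 1 in kFRA against WT (Pou2f2, adjusted p = 0.019 by edgeR). The deviations of same-numbered libraries correlated between −0.36 and 0.33, and 7 of 18 comparisons matched best on their own number. With 3 libraries per number, this check cannot tell whether a number marks a batch. The counts over all genes were 713, 2523 and 1756, and without kFRA replicate 2 the first 2 became 3299 and 5632; the B cell covariate gave 233 and 380, the erythroid 452, 741 and 252, the plasma cell 1954, 1437 and 828, and the DESeq2 Wald test 1329 and 3536. With library size alone the genes higher and lower were 127 and 361, 2363 and 917, and 2053 and 518, against 245 and 468, 948 and 1575, and 720 and 1036 with TMM.

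Signs changed for regulators that had not passed. Irf4 in kFRA against DH-LMP2A became 0.06 (erythroid covariate), 0.15 (plasma cell covariate), 0.04 (without DH-LMP2A replicate 3), 0.13 (without kFRA replicate 2) and 0.21 (without both). With library size alone, kFRA against WT gave 0.0 for Pou2af1, 0.11 for Ell2 and 0.01 for Ikzf1, and DH-LMP2A against WT gave 0.31 for Bhlha15 and 0.23 for Ikzf3. With the B cell covariate Ikzf1 became 0.11 in kFRA against WT and Ikzf3 0.07 in DH-LMP2A against WT. In DH-LMP2A against WT Bhlha15 became 0.03 with the proliferation covariate, 0.04 without DH-LMP2A replicate 2 and 0.26 without WT replicate 3. Ikzf3 there became 0.15 with the plasma cell covariate and 0.02 without DH-LMP2A replicate 1 or WT replicate 2. Ikzf1 there became −0.11 with the erythroid covariate and Irf4 −0.18 with the plasma cell covariate. In kFRA against WT Irf4 became −0.03 with the plasma cell covariate, Zbtb20 −0.08 without kFRA replicate 2, alone or with DH-LMP2A replicate 3, and Ell2 0.05 without kFRA replicate 3. Over the fits that each left out 1 replicate, Irf4 in kFRA against DH-LMP2A went from −0.28 to 0.13. In kFRA against WT, Ell2 went from −0.24 to 0.05 and Zbtb20 from −0.08 to 0.48. In DH-LMP2A against WT, Bhlha15 went from −0.29 to 0.26 and Ikzf3 from −0.3 to 0.02.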
